A study of Mus musculus with 4 samples.

Results

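The cells described here are a small group of lung endothelial cells that carried RNA of Slc6a2, the noradrenaline transporter, together with venous genes such as Vwf. A cell was a member if it held at least 1 UMI (unique molecular identifier, 1 counted RNA molecule) of Slc6a2, of at least 3 of the 6 endothelial genes Cdh5, Ptprb, Pecam1, Tek, Calcrl and Prex2, and of at least 2 of the 5 second genes Vwf, Kirrel3, Mmp16, Samd5 and Amigo2. Cells with 3 or more of the 6 aerocyte genes Car4, Ednrb, Rgs6, Tmeff2, Lmntd1 and Fibin were left out. Of 16541 kept cells, 286 met the rule, 111 in the Cre_Neg pool and 175 in the Cre_Pos pool. These values chose the members, so the levels of the rule genes are a description.

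The study profiled single cells of mouse lung by SPLiT-seq, in which fixed cells take up combinations of barcodes in successive plates. Each pool joined the lungs of 6 C57Bl6/J mice aged 8 weeks. The Cre_Pos mice carried the Shh.Cre transgene and the floxed p73 allele (Trp73, exons 7 to 9), and the Cre_Neg littermates were homozygous for that floxed allele without Cre. Shh is an epithelial gene in lung, and it had 0 UMIs in the venous cells of both pools. Before barcoding, CD45-positive cells were depleted, Epcam-positive cells were enriched and DAPI-negative cells were sorted, so the shares of endothelial cells are those left after these steps. Both pools were divided over the same 4 sublibraries, which are technical aliquots and not animals. With 1 pool per genotype no test of the genotype was possible: intervals in parentheses are exact 95% intervals, and they cover counting error only. What differs between the mice of the pools, their handling and their genotype cannot be told apart.

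Pulmonary veins and venules return oxygenated blood to the heart, and in most organs venous endothelium is the usual site of leukocyte exit. Von Willebrand factor is kept in Weibel-Palade bodies, the endothelial storage granules that also hold P-selectin. Lung endothelium is known for clearing noradrenaline from the circulation, and the transporter encoded by Slc6a2 carries it into cells, where monoamine oxidases break it down.

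The 286 cells held 2599085 UMIs, with medians of 7282 UMIs in Cre_Neg and 8484 in Cre_Pos, and 18 to 61 members came from each pool in each sublibrary. General capillary cells, the main comparison, numbered 5467 and were shallower, with a median of 6206 UMIs. Trp73, the floxed gene, had 15 UMIs in 1 Cre_Neg member and 2 UMIs in 1 Cre_Pos member, too few to check the deletion in these cells. Among kept cells, 283 barcode combinations occurred in 2 or more sublibraries, and the 570 cells concerned were treated as separate cells. Doublet calls marked 3 Cre_Neg and 2 Cre_Pos members. At least 3 markers of 1 other cell type were present in 14 members, 6 in Cre_Neg and 8 in Cre_Pos.

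All 5 markers of these cells, Slc6a2, Vwf, Kirrel3, Samd5 and Prss23, were detected in both pools, Kirrel3 in the fewest cells. Slc6a2 stood at 2892, 2210.2, 2519 and 2589 CPM (counts per 1000000 UMIs of the class) in Cre_Neg sublibraries 1 to 4 and at 2315, 3299, 1998 and 2502 CPM in Cre_Pos sublibraries 1 to 4. The ranges of the pools overlapped, and the levels over all cells were 2533 ± 279.7 and 2549 ± 554 CPM (SD over the sublibraries, n = 4). A member held a median of 17 Slc6a2 UMIs, from 1 to 128, and 24 members held 1. In alveolar type 2 cells, epithelial cells that should lack the gene, 0.148% of Cre_Neg and 0.21% of Cre_Pos cells held a Slc6a2 UMI, never more than 1, at median depths of 11255 and 14090 UMIs. The members with at least 2000 UMIs, 106 in Cre_Neg and 172 in Cre_Pos, were thinned to 2000 UMIs per cell. Of these, 90.6% and 87.2% still held a Slc6a2 UMI.

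Vwf, the stored clotting protein, was detected in every member of both pools, at 5512, 4344, 4309.9 and 5124 CPM in Cre_Neg sublibraries 1 to 4 and 5211, 5911, 5287 and 4947 CPM in Cre_Pos. General capillary cells had 226 and 252 CPM in Cre_Neg and Cre_Pos. Samd5, a SAM domain protein, was found in 97.3% and 95.4% of members. Kirrel3, an immunoglobulin family adhesion molecule, was found in 47.7% of Cre_Neg members (95% interval 38.2 to 57.4%) and in 38.9% of Cre_Pos members (31.6 to 46.5%), below Vwf and Samd5. Its level by sublibrary was 1142, 391, 652 and 1392 CPM in Cre_Neg and 515, 472, 521 and 702 CPM in Cre_Pos, and the pools overlapped. Prss23, a secreted serine protease, is the marker that the rule did not use. It stood at 551, 424, 344 and 445 CPM in Cre_Neg and 452, 406, 468 and 373 CPM in Cre_Pos, against 20.8 and 26.5 CPM in general capillary cells, and it was present in 81.1% and 84% of members.

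**Figure D1:**
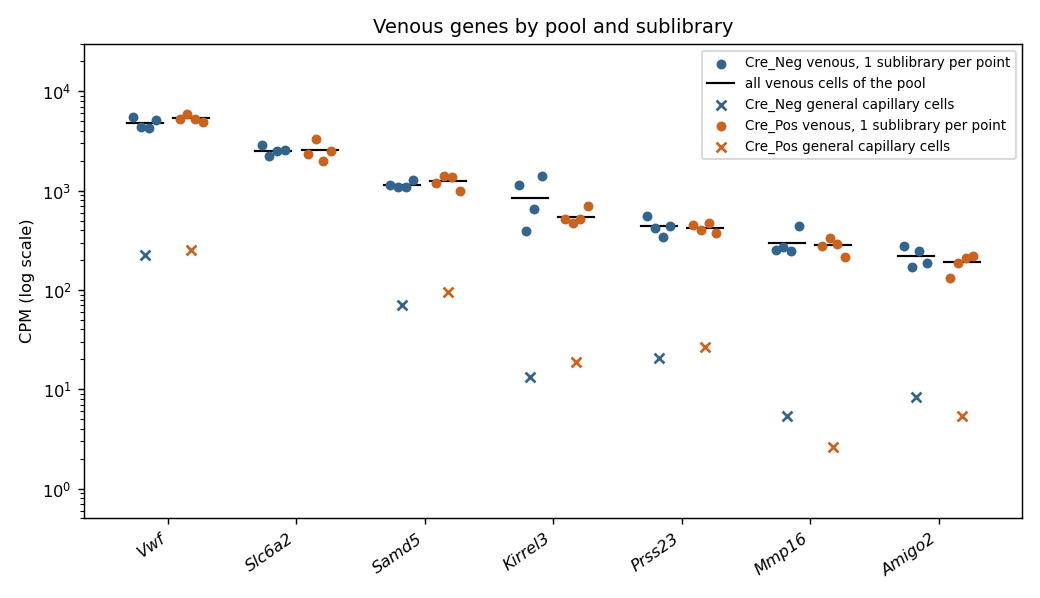
CPM on a log scale of 7 venous genes in the venous cells of each sublibrary (points), in all venous cells of the pool (lines) and in general capillary cells (crosses). Slc6a2 has no cross because the capillary class was defined without it, and Prss23 is the 1 gene shown that no rule used.

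At the threshold, 51 members held 2 of the 5 second genes, 79 held 3, 93 held 4 and 63 held all 5. Members with 2 had Slc6a2 at 1356 CPM and Vwf at 3150.1 CPM. Just outside, the 14 endothelial cells with Slc6a2 and 1 second gene had Slc6a2 at 163 CPM and Vwf at 469 CPM. A larger set of 1179 endothelial cells held at least 2 second genes and no Slc6a2, and 160 of them held at least 3. The 1179 cells had Vwf at 1051, Prss23 at 29.7 and Kit at 928 CPM, against 5159, 430 and 259 CPM in members. Such cells could enter the general capillary class, whose definition left out cells with Slc6a2 but not cells with second genes.

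Venous cells made up 1.42% (1.17 to 1.71%) of kept cells in Cre_Neg and 2.00% (1.72 to 2.32%) in Cre_Pos, a ratio of 1.40 (1.10 to 1.80). By sublibrary the share was 1.57, 1.32, 1.54 and 1.21% in Cre_Neg and 1.49, 1.94, 2.64 and 1.93% in Cre_Pos, so 1 Cre_Pos value lay within the Cre_Neg range. Endothelial cells as a whole were 38.4% of kept Cre_Neg cells and 67.5% of kept Cre_Pos cells. Among endothelial cells the venous share was 3.71% (3.06 to 4.46%) in Cre_Neg and 2.97% (2.55 to 3.43%) in Cre_Pos, a ratio of 0.799 (0.626 to 1.02), which runs the other way. The 4 sublibrary values were 4.26, 3.53, 3.95 and 2.94% in Cre_Neg and 2.22, 2.88, 3.90 and 2.84% in Cre_Pos. They overlapped, and the interval of the ratio included 1. Artery-leaning cells, defined by at least 3 of Dll4, Cxcl12, Gja5, Gja4, Bmx and Dkk2, were 5.75% and 9.90% of endothelial cells.

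**Figure D2:**
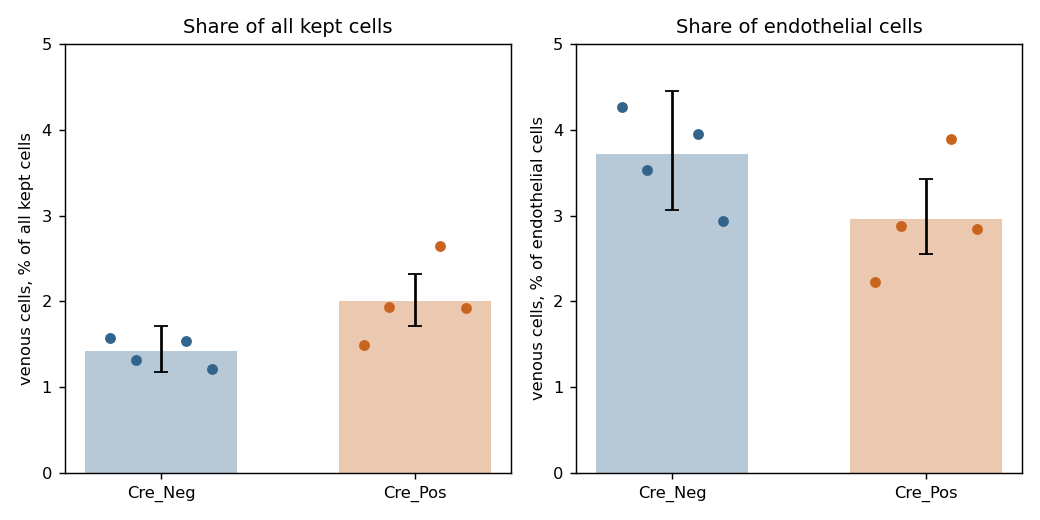
Venous cells as a percentage of all kept cells (left) and of endothelial cells (right), with bars for each pool, exact 95% counting intervals and 1 point per sublibrary. The Cre_Pos bar is higher on the left (2.00 against 1.42%) and lower on the right (2.97 against 3.71%).

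The comparison with general capillary cells asked what sets the venous cells apart beyond the rule genes. Capillary cells were endothelial cells with at least 2 of Gpihbp1, Kit, Sema3g, Bmp6 and Aplnr, no Slc6a2 UMI and fewer than 3 artery or aerocyte genes. A gene counted as past the fold where it differed at least 2-fold the same way in both pools. Of 13004 genes with at least 50 UMIs, 489 (3.76%) were higher and 360 (2.77%) lower in venous cells, and the median log2 ratio was 0.01. Venous cells were deeper, and in cells thinned to 2000 UMIs 327 were higher and 206 lower. The minimum of 50 UMIs was kept there, so fewer genes reached it and these counts have a smaller base than 13004. Without the 14 members that held markers of another cell type, 560 were lower, and with such cells also removed from the capillaries 277 were. Genes of the class rules were left out. Membership and the gene values came from the same cells, so these ratios are descriptions.

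A venous identity list of 19 genes was written with earlier results of these data known, and it holds the marker Prss23. Of its genes, 15 reached the minimum and 14 of these were past the fold upward, with a median log2 ratio of 3.64. Only Ephb4, the venous receptor of ephrin-B2, was not, at 387 and 391 CPM in Cre_Neg and Cre_Pos venous cells against 255 and 267 CPM in capillaries. Nr2f2 (COUP-TFII), the transcription factor of venous fate, stood at 136, 141, 142 and 143 CPM in Cre_Neg sublibraries 1 to 4 and 66.1, 111, 98.7 and 126 CPM in Cre_Pos, against 6.97 and 9.13 CPM in capillaries. Its log2 ratio was 4.33 (3.92 to 4.75) in Cre_Neg and 3.49 (3.20 to 3.78) in Cre_Pos. Bst1 (CD157), an ADP-ribosyl cyclase of the cell surface, was at 166, 119.6, 87 and 127 CPM in Cre_Neg and 129, 111, 105 and 134 CPM in Cre_Pos. No venous sublibrary fell near the capillary levels of 2.24 and 1.36 CPM, and the log2 ratio was 5.79 (5.17 to 6.46) in Cre_Neg and 6.43 (5.91 to 6.98) in Cre_Pos. Vegfc, a ligand of the VEGF receptors best known for lymphatic growth, had log2 ratios of 2.34 (2.24 to 2.43) in Cre_Neg and 3.38 (3.32 to 3.44) in Cre_Pos. Against artery-leaning cells 12 of 15 list genes were past the fold upward, where 3.87% of 9689 genes were higher and 2.62% lower. Against aerocytes, the large capillary cells of the alveolus, 14 of 15 were, where 7.92% of 11457 genes were higher and 5.73% lower. None of the 15 was past the fold downward in any of the 3 comparisons. Ackr1 and Sele, markers of inflamed or larger venules, were near 0, with Sele at 0 UMIs in both pools.

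Among the genes named by rank, those furthest above capillary cells spanned several functions. Zfpm2 (FOG2), a cofactor of GATA factors, stood at 507, 272, 625 and 434 CPM in Cre_Neg and 341, 399.5, 308 and 378 CPM in Cre_Pos, against 5.42 and 3.9 CPM in capillaries. Chn2, a Rac GTPase-activating protein, was at 1196 and 1106 CPM against 41.3 and 33.7 CPM. Tmem45a, a transmembrane protein, was at 105 and 84.1 CPM against 0.43 and 0.189 CPM. All 8 venous sublibrary values lay above both capillary levels for each of these genes. Pgm5, a protein of adhesion junctions, had a log2 ratio of 6.30 (5.64 to 7.02) in Cre_Neg and 6.72 (6.33 to 7.13) in Cre_Pos. Lpcat2, which makes platelet-activating factor, had 5.39 (4.88 to 5.93) in Cre_Neg and 6.90 (6.37 to 7.49) in Cre_Pos. Fgl2, a prothrombinase of the cell surface, had 5.96 (5.09 to 6.94) in Cre_Neg and 7.64 (6.82 to 8.58) in Cre_Pos. Every venous sublibrary value of these 3 genes exceeded both capillary levels. Foxc1, a forkhead factor, was low in absolute terms, at 16.9 and 21.2 CPM with 16 and 35 UMIs, and capillaries had 0.172 and 0.114 CPM. Cpe (carboxypeptidase E), Nrxn3 (a neurexin), Ano2 (a calcium-activated chloride channel), Fbln5 and Palld also ranked among the named genes, as did Gm5127 and Gm16070.

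**Figure D3:**
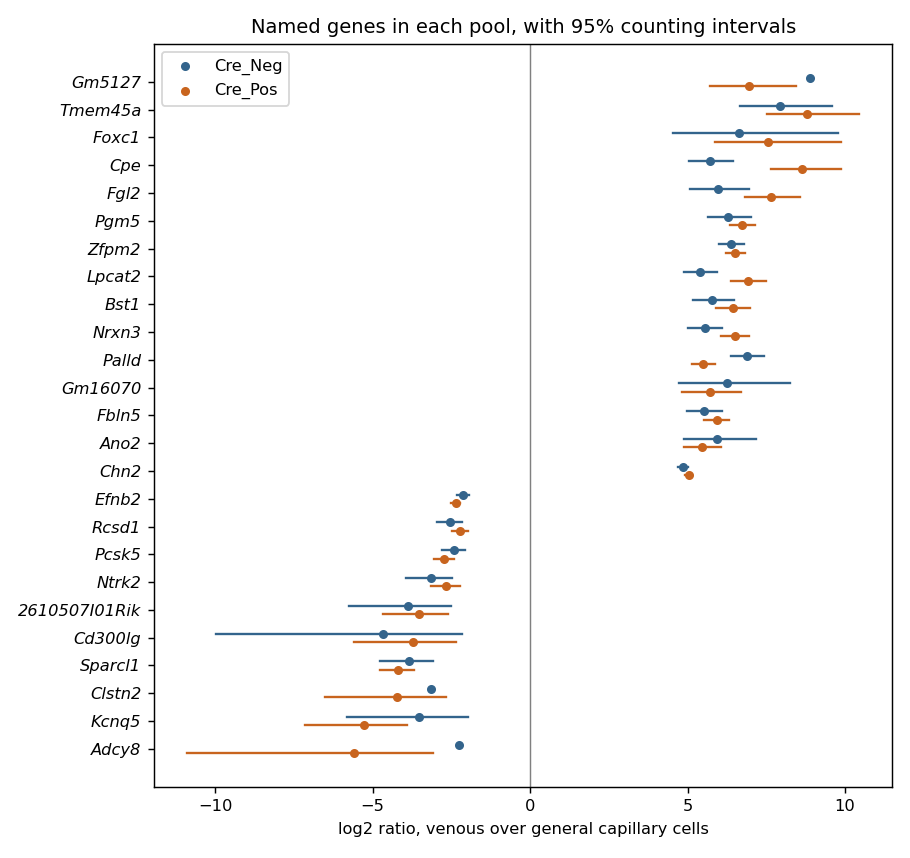
Log2 ratio of venous over general capillary cells in each pool for the 25 named genes, with exact 95% counting intervals as lines. Points without a line (Gm5127, Clstn2 and Adcy8 in Cre_Neg) had 0 UMIs in 1 class and are bounds set at 3 counts.

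Among the genes lower in venous cells, Efnb2, the arterial ligand of Ephb4, stood at 206, 275, 320.3 and 201 CPM in Cre_Neg and 268, 177, 249 and 196 CPM in Cre_Pos, against 1114 and 1126 CPM. Sparcl1, a matricellular protein, was at 13.7 and 17.5 CPM against 199 and 322 CPM. Ntrk2, the BDNF receptor, was at 18 and 25.4 CPM against 160.2 and 162 CPM. Every venous sublibrary value of these 3 genes was below the capillary level of either pool. Pcsk5, a proprotein convertase, had log2 ratios of -2.41 and -2.73, and Rcsd1, which binds actin-capping protein, had -2.55 and -2.23 in Cre_Neg and Cre_Pos. Cd300lg, Kcnq5, Clstn2, Adcy8 and 2610507I01Rik had at most 9 UMIs per pool in venous cells. With venous and capillary cells that held 3 markers of another cell type removed, the ratio over both pools went from -4.82 to -0.75 for Kcnq5, from -4.81 to -1.19 for Clstn2 and from -6.01 to -2.96 for Adcy8. Of 9 arterial genes measured, Efnb2, Hey1 and Sox17 were lower and Fbln5, an elastic fibre protein, was higher, with a median log2 ratio of -0.42. Of 11 Notch genes measured, Hey1 and Jag2 were lower and none was higher.

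In the monoamine list, Slc6a2 was required of every member by the rule, and the other transporters were scarce. Slc6a4 (the serotonin transporter) and Slc22a3 had 0 UMIs, and Slc29a4 and Slc18a2 had at most 1.82 CPM. Of the 6 members measured outside the rules, Maob was higher, at 48.1, 29, 59.3 and 42.3 CPM in Cre_Neg and 38.2, 57.7, 19.7 and 69.7 CPM in Cre_Pos against 15.5 and 14.5 CPM, and the other 5 did not pass the fold. Maoa was at 66.6 and 80.5 CPM against 107 and 135 CPM in capillaries. The adrenergic receptor gene Adrb1 was detected, at 87.7 and 96.8 CPM in Cre_Neg and Cre_Pos.

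Of 16 haemostasis genes measured beside Vwf, 4 were higher and 1 was lower, with a median log2 ratio of 0.48. Entpd1 (CD39), which degrades ADP and ATP on the cell surface, stood at 1684, 1246, 1578 and 1863 CPM in Cre_Neg and 1265, 1423, 1382 and 1177 CPM in Cre_Pos against 585 and 508 CPM. Rab27a, a GTPase of Weibel-Palade bodies, was at 291 and 303 CPM against 112 and 139 CPM, and Rab3d was just past the fold at 1.25 and 1.02 on the log2 scale. Selp (P-selectin) was at 39.4, 47.1, 11.9 and 37.1 CPM in Cre_Neg and 31.3, 88.6, 13.8 and 0 CPM in Cre_Pos, in 12 and 14 cells. Its level varied widely between sublibraries and reached 0 in Cre_Pos sublibrary 4, and the capillary levels were 1.64 and 0.151 CPM. Plat, the tissue plasminogen activator, was lower, with 11 and 2 UMIs. Among 12 adhesion and junction genes, Selp, Vcam1, Icam1 and Jam2 were higher and none was lower. Vcam1, a leukocyte adhesion molecule, was found in 30 Cre_Neg and 46 Cre_Pos members at 79.2 and 108 CPM.

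Prostanoid and nitric oxide genes split. Ptgs1, Ptgs2 (the cyclooxygenases) and Ptgis (prostacyclin synthase) were higher, and Nos2, Gucy1a1 and Gucy1b1 (the subunits of soluble guanylate cyclase) were lower, among 12 measured. Ptgs1 stood at 245, 170.3, 233 and 302 CPM in Cre_Neg and 222, 233, 229 and 204 CPM in Cre_Pos, against 74.5 and 68 CPM. Ptgis was at 84.5 and 80.5 CPM against 8.61 and 3.67 CPM. The guanylate cyclase subunits and Nos2 had between 1 and 4 UMIs per pool in venous cells, and Gucy1a1 was at 21.5 and 43.7 CPM in capillaries. Without cells that held markers of another type, the ratio over both pools went from -4.00 to -1.77 for Gucy1a1 and from -2.79 to -0.98 for Gucy1b1, and in thinned cells that of Nos2 was -0.92. Of 10 VEGF and angiopoietin genes, Vegfc and Nrp2, a co-receptor for VEGF-C, were higher and Vegfa and Angpt1 were lower. Nrp2 was at 199 and 219 CPM against 12.5 and 17.3 CPM, and Vegfa at 189 and 150.1 CPM against 412 and 366 CPM. Among 18 matrix genes, the elastic fibre genes Eln, Fbn1 and Fbln5 were higher together with Col18a1 and Mgp, and Col4a2 and Sparc were lower. Eln (elastin) stood at 617, 475, 577 and 577 CPM in Cre_Neg and 723, 593, 626 and 622 CPM in Cre_Pos, above the capillary levels of 177 and 186 CPM in all 8 values. Of 16 BMP and TGF-beta genes, Bmp4 and Ltbp4 were higher and none was lower. Among 27 endothelial transcription factors Nr2f2, Gata6 and Foxc1 were higher and Sox17, Hey1 and Prdm1 were lower, with a median log2 ratio of 0.16. Gata6 was near the fold, at 1.07 over both pools, and at 0.98 without sublibrary 2 and 0.48 in thinned cells. Of 7 general capillary genes outside the rules, Kcnh1 was higher and Glp1r and Lpl (lipoprotein lipase) were lower, and of 7 aerocyte genes Kitl was lower. No interferon response gene of 18 and no MHC class II gene of 7 passed the fold, with median log2 ratios of 0.15 and -0.60. Of all 13004 genes only 3.76% were higher and 2.77% lower, so a count of 0 in lists this short says little.

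The members were split by how many of the 5 second genes they held, genes that the membership rule also used. Whether the members differ in kind was not tested. Those with 2, 3, 4 and 5 had Kit, the stem cell factor receptor that marks general capillaries, at 628, 287, 193 and 135 CPM. The log2 ratio of 5 against 2 was -2.22 (-2.60 to -1.85). Glp1r, the GLP-1 receptor, followed at 513, 244, 187 and 150.1 CPM and Sema3c, a secreted semaphorin, at 3353, 2673, 2255 and 1665 CPM. All 3 genes were lower in members with 5 second genes than in members with 2, and all were still detected there. Kcnh1, a potassium channel of the general capillary list, was higher instead, at 481, 724, 592 and 819 CPM, with a log2 ratio of 0.77 (0.51 to 1.03) and thinned levels of 413 and 857 CPM in members with 2 and with 5. Venous genes outside the rule were higher: Nr2f2 was at 53.1, 73.4, 125 and 185 CPM, Vcam1 at 25, 54.7, 95.4 and 183 CPM and Palld, an actin-bundling protein, at 46.9, 168, 254 and 309 CPM. The log2 ratios of 5 against 2 were 1.80 (1.06 to 2.63), 2.88 (1.85 to 4.12) and 2.72 (1.97 to 3.59). Cxcl12 moved little, with a log2 ratio of 0.22 (-0.39 to 0.85). Depth moved with the split, from a median of 5734 UMIs in members with 2 second genes to 9970 in members with 5. In cells thinned to 2000 UMIs each, Kit was at 554 and 39.7 CPM, Nr2f2 at 76.1 and 238 CPM and Chn2 at 565 and 1556 CPM in members with 2 and with 5. Of the 51 members with 2, 46 had enough UMIs to be thinned. The second genes were still counted at each cell's full depth, so thinning did not take the depth difference out of the split. The genes shown were chosen with their values known.

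**Figure D4:**
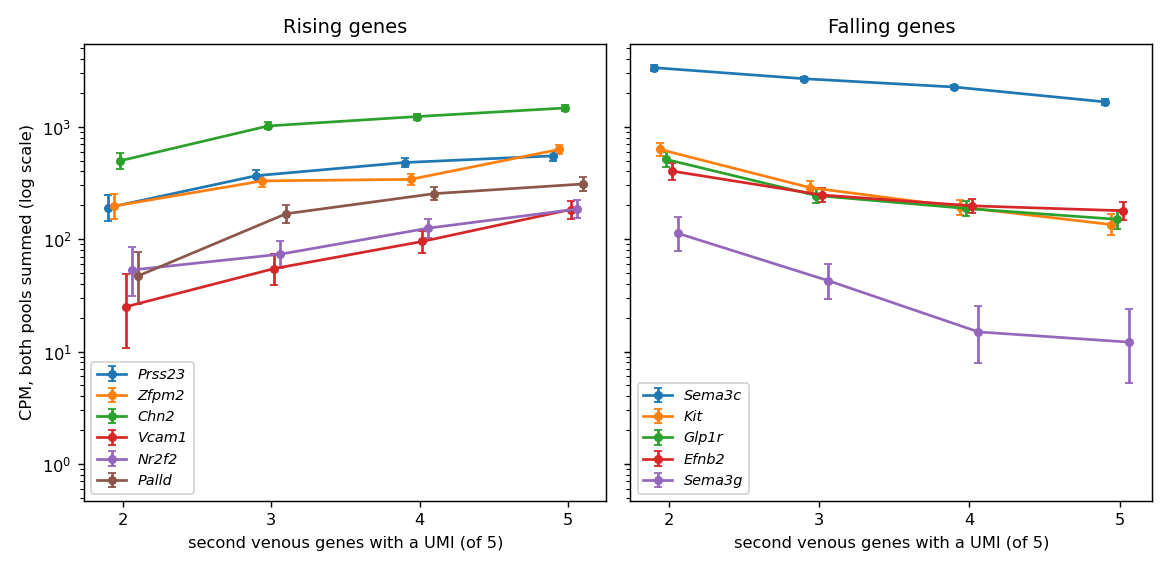
CPM on a log scale, both pools summed, of genes that were higher (left) or lower (right) in members with more of the 5 second genes, with exact 95% Poisson intervals. Kit goes from 628 to 135 CPM and Nr2f2 from 53.1 to 185 CPM, while the median depth goes from 5734 to 9970 UMIs.

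Between the pools, 6 immediate early genes were higher in the venous cells of Cre_Pos. This group holds the rapid and short-lived transcripts of the Fos, Jun and Egr families that follow many stimuli. A gene counted as past the fold where the pools differed at least 2-fold with the same sign in all 4 sublibraries. Of 6154 genes with at least 50 UMIs, 38 (0.617%) were higher and 27 (0.439%) lower in Cre_Pos, and the median log2 ratio was -0.01. Fewer sublibraries make the sign condition easier to meet: without sublibrary 2, 61 were higher, and without sublibrary 1 or 4, 42 or 47 were lower. In Xist-only cells 72 were higher and 34 lower; Y-linked without Xist RNA marked 22.3% of sex-called Cre_Neg members and 6.13% of Cre_Pos members. Of 16 immediate early genes measured, 6 were higher and none was lower, with a median log2 ratio of 0.58 over the members with at least 20 UMIs. No venous identity gene of 15 measured was past the fold in either direction, with a median of 0.08.

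For 5 of the 6 genes the start of the gene was in the RefSeq promoter table (build GRCm38.p6), and the 250 bases before it are printed because these genes moved together. Capitals mark TGACG on either strand, the core of the site of CREB and ATF factors, and in Zfp36 the CArG box, the site of serum response factor.
Fos (chr12:85473640-85473889, plus strand): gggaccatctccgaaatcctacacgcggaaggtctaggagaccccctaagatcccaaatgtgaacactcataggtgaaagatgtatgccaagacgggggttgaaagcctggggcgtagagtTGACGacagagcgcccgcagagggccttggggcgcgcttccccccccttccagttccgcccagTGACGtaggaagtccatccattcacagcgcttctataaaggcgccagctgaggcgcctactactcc
Fosb (chr7:19310046-19310295, minus strand): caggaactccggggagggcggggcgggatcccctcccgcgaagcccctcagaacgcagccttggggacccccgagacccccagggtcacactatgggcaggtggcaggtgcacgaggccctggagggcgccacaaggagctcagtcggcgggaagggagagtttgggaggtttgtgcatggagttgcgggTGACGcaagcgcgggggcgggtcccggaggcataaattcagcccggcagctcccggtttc
Junb (chr8:84978749-84978998, minus strand): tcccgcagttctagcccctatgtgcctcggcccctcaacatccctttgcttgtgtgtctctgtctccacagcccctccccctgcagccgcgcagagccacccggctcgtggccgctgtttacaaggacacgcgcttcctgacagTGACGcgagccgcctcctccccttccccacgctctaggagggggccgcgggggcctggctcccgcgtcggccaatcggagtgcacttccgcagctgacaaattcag
Atf3 (chr1:191183334-191183583, minus strand): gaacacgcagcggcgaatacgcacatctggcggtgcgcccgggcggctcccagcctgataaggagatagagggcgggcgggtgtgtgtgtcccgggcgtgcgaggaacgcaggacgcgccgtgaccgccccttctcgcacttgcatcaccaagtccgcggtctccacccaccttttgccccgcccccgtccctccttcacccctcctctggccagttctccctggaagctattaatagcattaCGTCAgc
Zfp36 (chr7:28379229-28379478, minus strand): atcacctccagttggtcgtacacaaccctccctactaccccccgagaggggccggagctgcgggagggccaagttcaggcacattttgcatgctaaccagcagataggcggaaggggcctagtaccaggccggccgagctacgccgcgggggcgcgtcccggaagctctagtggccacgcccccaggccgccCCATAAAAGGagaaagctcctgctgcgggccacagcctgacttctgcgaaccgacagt
TGACG occurred in Fos 129 and 66 bases before the start, in Fosb 60, in Junb 106 and in Atf3 7 bases before it, the last on the other strand. It was in at least 1 window of 12 of the 17 immediate early genes in the table. Of all 32851 promoter windows of this length, from 27025 genes, 17.8% held it. A CArG box was in 2 of the 17 genes and in 1.47% of windows. Shares of genes and of windows are unlike units, since a gene can have several windows. Npr3, a gene lower in Cre_Pos, also held TGACG, 50 bases before its start. Both motifs were chosen after the values were seen, and a match is a string of letters, not a bound site.

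Atf3, a stress-induced member of the ATF family, stood at 74.4, 72.5, 189.8 and 74.1 CPM in Cre_Neg sublibraries 1 to 4 and at 306, 486, 600.2 and 678 CPM in Cre_Pos sublibraries 1 to 4. The pools did not overlap, and the log2 ratio of Cre_Pos over Cre_Neg was 2.35 (2.05 to 2.66). In Cre_Neg 30 of the 99 Atf3 UMIs lay in 1 cell, and in Cre_Pos 110 of the 881. Fosb, an AP-1 subunit, was at 144, 50.7, 182 and 42.3 CPM in Cre_Neg and 581, 383, 401 and 456 CPM in Cre_Pos, without overlap and with a log2 ratio of 2.04 (1.74 to 2.36). Egr1, a zinc finger factor, was at 65.6, 68.8, 90.9 and 5.29 CPM and 250.3, 210.1, 188 and 206 CPM, with a ratio of 1.77 (1.37 to 2.20). Its Cre_Neg sublibrary 4 held the lowest value of all 8. Junb, another AP-1 subunit, went from 114, 43.5, 71.2 and 26.5 CPM to 219, 171, 164 and 150.1 CPM, with a ratio of 1.42 (1.02 to 1.84). Fos itself had 114, 87, 107 and 52.9 CPM in Cre_Neg and 243, 202, 241 and 252 CPM in Cre_Pos, a ratio of 1.34 (1.00 to 1.69). For Junb and Fos, too, every Cre_Pos value exceeded every Cre_Neg value. Zfp36 (tristetraprolin), which destabilises mRNAs, was the sixth, at 61.3 and 131 CPM with a ratio of 1.10 (0.68 to 1.54), which was 0.83 without sublibrary 2. Btg2, Jund and Jun had ratios of 1.29 (0.73 to 1.90), 0.98 (0.58 to 1.39) and 0.58 (0.43 to 0.73) and did not pass both conditions. Klf2, Klf4, Dusp1 and Nr4a1 lay between -0.09 and 0.10.

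**Figure D5:**
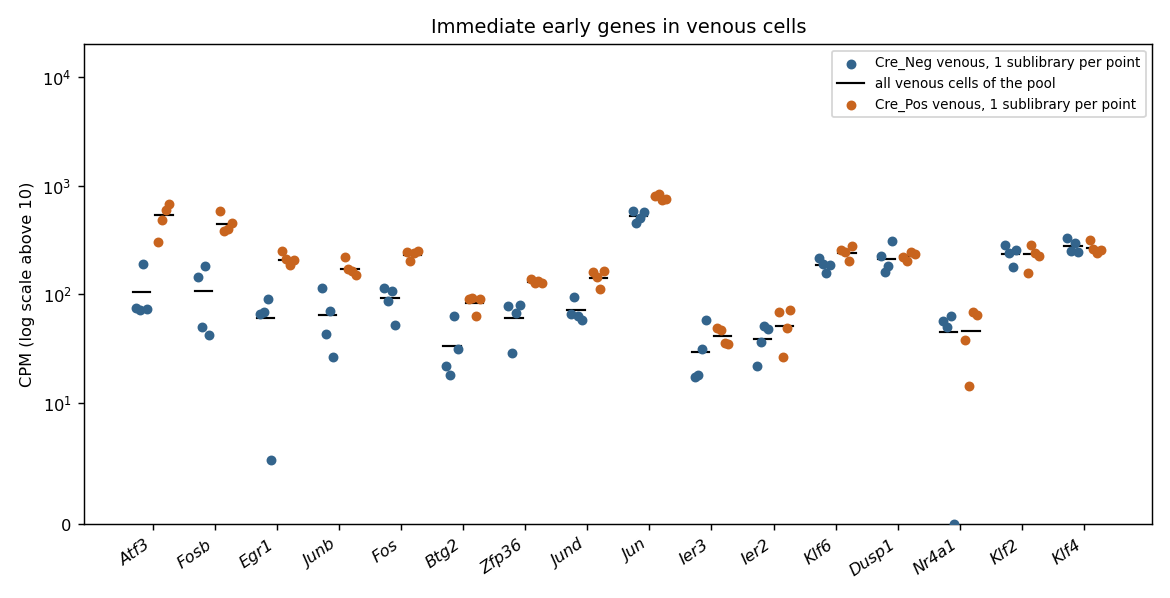
CPM of the 16 measured immediate early genes in venous cells, 1 point per sublibrary and a line for all venous cells of the pool (axis logarithmic above 10 and linear below). Atf3, Fosb, Egr1, Junb, Fos and Zfp36 lie higher in Cre_Pos without overlap, and Klf2, Klf4 and Dusp1 overlap.

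The same genes were also higher in the other endothelial classes of the Cre_Pos pool. In general capillary cells the log2 ratios were 1.33 for Atf3, 1.17 for Fosb, 0.76 for Egr1, 0.89 for Junb, 0.86 for Fos and 0.62 for Zfp36. In artery-leaning cells Atf3 was at 1.44 and Egr1 at 1.95. In alveolar type 2 cells they were between -0.34 (Fosb) and 0.15 (Atf3). All classes come from the same pools, and whether the venous ratios differ from the capillary ones was not tested. Free RNA, read from barcodes of 50 UMIs or fewer, gave ratios of the 6 genes between -0.23 (Egr1) and 0.21 (Fos). In Xist-only cells the ratios of Atf3, Fosb, Egr1, Junb, Fos and Zfp36 were 2.38, 2.01, 1.32, 1.35, 1.15 and 1.41.

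Fkbp5, a glucocorticoid-induced chaperone partner of the glucocorticoid receptor, was lower in Cre_Pos. It was at 149, 123, 130.5 and 154 CPM in Cre_Neg and 48.7, 53.5, 51.3 and 67 CPM in Cre_Pos, without overlap, with a log2 ratio of -1.32 (-1.72 to -0.92), and it was found in 50 of 111 and 56 of 175 cells. It was the 1 of 8 measured glucocorticoid-induced genes past the fold, and the median over the members with at least 20 UMIs was -0.37. That median was -0.15 without sublibrary 3 and -0.16 without the doublet calls. Tsc22d3 and Zbtb16, other targets, were at -0.51 and -0.42, and Per1 was at -0.07. None of these 3 passed the fold, and Zbtb16 was at -0.68 without sublibrary 2 and -0.23 without sublibrary 3. In capillary cells Fkbp5 was at -0.91. Npr3, the clearance receptor for natriuretic peptides, stood at 757, 601, 719.6 and 958 CPM in Cre_Neg and 250.3, 313, 436 and 397 CPM in Cre_Pos. Its pools did not overlap either, and the ratio was -1.05 (-1.21 to -0.89), against -0.85 in capillary cells. It was just past the fold, at -0.95 without sublibrary 1 and -0.98 without sublibrary 4, in Xist-only cells or with TMM scaling.

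Palld was at 341, 214, 352 and 539.9 CPM in Cre_Neg and 97.3, 202, 124 and 131 CPM in Cre_Pos. The log2 ratio was -1.27 (-1.51 to -1.02). Gm5127 was at 52.5, 239, 79.1 and 90 CPM and 3.48, 59.7, 31.6 and 0 CPM, a ratio of -2.13 (-2.65 to -1.62), and was found in 18 and 14 cells. Both were among the genes higher in venous than in capillary cells. Cyp26b1, which degrades retinoic acid, had a ratio of -2.16 (-2.74 to -1.60), with 44 of its 97 Cre_Neg UMIs in 1 cell. Without the highest cell of each pool it was at -1.55, and without sublibrary 4 at -1.31. Ube2v1 and Hgf, hepatocyte growth factor, had ratios of -1.68 (-2.59 to -0.81) and 1.91 (0.98 to 2.97), from 33 and 18 UMIs and from 11 and 72 UMIs in Cre_Neg and Cre_Pos. Tox, Cttnbp2, Plxdc2 and Iqcn were higher in Cre_Pos from at most 10 Cre_Neg UMIs each, and 25 of the 47 Tox UMIs and 27 of the 76 Plxdc2 UMIs in Cre_Pos lay in 1 cell. Tox was at 3.17 (1.53 to 5.49), with 4.47 without sublibrary 1 and 2.45 without sublibrary 3, and Cttnbp2 at 2.49 (1.17 to 4.17), with 1.78 without sublibrary 4.

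Several lower genes rested on few cells. Myo5b, a vesicle motor of epithelial cells, had a ratio of -3.27 (-4.17 to -2.47), with 47 of 83 Cre_Neg UMIs in 1 cell, and without the 5 doublet calls it was at -1.31. Alcam, an adhesion molecule, had -1.28 (-1.61 to -0.96) with 67 of 192 UMIs in 1 cell, and was at -0.47 without the doublet calls. Rfx2, a factor of ciliated cells, went from -1.59 (-2.26 to -0.93) to -0.74, and Soat1, which esterifies cholesterol, from -1.53 (-2.25 to -0.84) to -0.73. Leaving out sublibrary 3 gave -2.11 for Myo5b and -0.94 for Soat1, leaving out sublibrary 1 gave -4.19 for Myo5b, and leaving out sublibrary 2 gave -0.94 for Rfx2 and -2.18 for Soat1. The summed level of 10 epithelial markers was 671 CPM in Cre_Neg (26.5 to 1336 over sublibraries) and 191 CPM in Cre_Pos (47.4 to 472), against 844 and 510 CPM in capillaries, and up to 334 of these UMIs were in 1 cell. Their part in the pool differences was not tested.

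Vegfc and Kirrel3 differed by less than 2-fold. Vegfc was at 1706, 1210.2, 1162 and 1498 CPM in Cre_Neg and 1540.1, 2574, 2310.0 and 2319 CPM in Cre_Pos. The ranges overlapped and the log2 ratio was 0.71 (0.62 to 0.81). Kirrel3 had a ratio of -0.62 (-0.76 to -0.48). Peak1, a kinase-like protein of the cytoskeleton, was at 206, 225, 198 and 138 CPM and 268, 216, 397 and 335 CPM, also with overlap.

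Of 10 pericyte and smooth muscle markers, Pdgfrb, Cspg4 and Cnn1 were at 0 in the members, and Rgs5, a regulator of G protein signalling, was past the fold above capillary cells. Rgs5 stood at 21.9, 25.4, 27.7 and 79.4 CPM in Cre_Neg and 45.2, 30.9, 37.5 and 34.9 CPM in Cre_Pos, against 1.98 and 2.27 CPM in capillaries. All 8 values lay above both capillary levels. The summed level of the 10 markers was 48.6 CPM in Cre_Neg (32.6 to 95.3 over sublibraries) and 72.6 CPM in Cre_Pos (33 to 118), against 26.1 and 50.8 CPM in capillaries, and 1 Cre_Pos member held at least 3 of them. Their part in the venous values was not tested. At 0 were also 7 of 10 cardiac muscle genes of the pulmonary vein wall, 6 of 10 immune genes, 4 of 10 fibroblast genes and 4 of 5 platelet genes. Lyve1, a hyaluronan receptor shared with lymphatics, was at 1378, 851, 894 and 1096 CPM in Cre_Neg and 935, 853, 851 and 753 CPM in Cre_Pos, above the capillary levels of 384 and 398 CPM in all 8 values. The lymphatic genes Prox1, Reln, Mmrn1 and Ccl21a had 0 UMIs in Cre_Neg members, and 1 Cre_Pos member held at least 3 lymphatic markers. In Cre_Pos members Ccl21a had 21 UMIs, and up to 206 UMIs of the 7 lymphatic markers counted lay in 1 cell. Proliferation markers reached 3 of 5 in 2 Cre_Neg cells and 1 Cre_Pos cell.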

How the data were processed

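Lung cells of 1 Cre_Neg and 1 Cre_Pos pool were measured by SPLiT-seq in 4 sublibraries. The authors deposited 1 table of whole-number counts (UMIs) for 647296 barcodes and 57010 genes, per the file headers, with an aligner not given in the sources used here. Per the submitters' processing notes the genome build was GRCm39, while the gene table names another build, so no coordinates were taken from it. Barcodes were kept as cells from 500 genes up, where mitochondrial UMIs were no more than 15%: 7793 in Cre_Neg and 8748 in Cre_Pos. Pools were read from the deposited sample column and checked against the barcoding wells, with 0 mismatches.

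Members, gene lists and named genes were chosen with earlier results of these data known. Named genes were the 10 highest and 10 lowest past the fold between pools, and the 15 highest and 10 lowest against general capillary cells, ranked by the counting bound nearest 0. Levels were summed counts per class as CPM. Intervals were exact Poisson or binomial (Clopper-Pearson) intervals at 95%, for counting error only, and ratios against 0 UMIs were bounded at 3 counts. Doublets were called with Scrublet per sublibrary and kept. With 1 pool per genotype there was no test and no p-value. On simulated counts with 200 genes changed 4-fold, the pool comparison over 6154 genes recovered 100 of 100 raised and 71 of 100 lowered genes and called 16 unchanged ones. The simulated counts were Poisson draws without UMIs gathered in single cells, so these rates need not hold for the real genes. Python 3.11.15, numpy 2.4.6, scipy 1.17.1, pandas 2.3.3, scanpy 1.11.5 and matplotlib 3.10.9 were used. Alternatives were each sublibrary left out, other minimums, scaling, thinning, Xist-only cells and cells without doublet calls.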

Additional observations from a re-analysis of the deposited data

Results flagged for a closer look

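Over 83 genes described here and the venous shares, 137 groups of 4 sublibrary values were examined. Genes were examined only in pools with at least 20 of their UMIs. In 8 of the groups 1 sublibrary lay far from the other 3. Chance flags about 1 in 20 such groups, which is close to 8 of 137. In Cre_Neg, sublibrary 4 was high for Mmp16 (439 CPM, the others 245 to 272), Cyp26b1 (296 CPM, the others 43.5 to 61.6) and Rgs5 (79.4 CPM, the others 21.9 to 27.7), and it held the fewest Cre_Neg members, 18. In Cre_Neg, sublibrary 3 was high for Atf3 (189.8 CPM, the others 72.5 to 74.4), a value still below every Cre_Pos sublibrary. In Cre_Pos, sublibrary 4 was high for Iqcn (45.6 CPM, the others 23.7 to 26.8) and Lpcat2 (193 CPM, the others 128 to 136). In Cre_Pos, sublibrary 3 was high for Pgm5 (359 CPM, the others 187 to 209) and low for Btg2 (63.2 CPM, the others 90.4 to 92.7).

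Of 83 genes compared between venous and general capillary cells, 1 went opposite ways in all 4 sublibraries, which are technical aliquots. For this gene, Sema3c, a secreted semaphorin, the log2 ratio of Cre_Pos over Cre_Neg was 0.18 in venous cells and -0.20 in general capillary cells. The difference was not tested.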

How the results depend on the processing

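No value past the fold changed direction under the alternatives run, while the median pool ratio of the venous identity list, near 0, ranged from -0.03 to 0.19 over the left-out sublibraries. Of the shares, ratios of shares and gene counts, 112 values under alternatives stayed close to the reported ones and 12 moved. Of the ratios and levels of single genes and the list medians, 1503 values stayed close and 172 moved. Leaving out each sublibrary gave 48 to 61 genes higher and 37 to 47 lower in Cre_Pos, since fewer sublibraries then had to share a sign. With at least 20 UMIs per gene 112 were higher and 108 lower, and with at least 100 UMIs 15 and 8. In Xist-only cells 72 were higher. With at least 3 of the 5 second genes required, the Cre_Pos venous share was 1.59% of kept and 2.36% of endothelial cells. Against general capillary cells, 206 genes were lower in cells thinned to 2000 UMIs. In an alternative chosen after seeing the data, which left out members with 3 markers of another cell type, 560 were lower. The other added alternatives, also chosen after seeing the data, left out such cells from both classes or the highest cell of each pool for a named gene. TMM scaling gave a log2 factor of -0.07 for Cre_Pos against Cre_Neg, so all pool ratios were slightly higher under it. No paired analysis was possible because each genotype is 1 pool and the sublibraries are aliquots of both. Genes with few UMIs are limited by depth: venous cells held 2599085 UMIs in all.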

Other observations

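Other genes past the fold between the pools, chosen after their values were seen, include stress and signalling genes. In venous cells Nfkbiz, a regulator of NF-kappaB, rested on 80 Cre_Neg and 295 Cre_Pos UMIs. Its log2 ratio was 1.08 (0.72 to 1.45), against 0.61 in general capillary cells. Socs3, a feedback inhibitor of cytokine signalling, was at 1.15 (0.63 to 1.70) in venous cells and 0.60 in capillaries. Ccn1, a matricellular protein, was at 1.14 (0.65 to 1.67) and 0.24. Each of these genes was higher in Cre_Pos in 4 of 4 sublibraries. Hspa1b, an inducible HSP70 chaperone, was at 1.38 (0.42 to 2.47) from 11 and 50 UMIs, and at 1.81 in capillaries. Lmo2, a haematopoietic and endothelial cofactor, was at 1.02 (0.55 to 1.52) in venous cells and 0.03 in capillaries. Ddit4, a stress-induced inhibitor of mTORC1, was lower, at -1.19 (-1.99 to -0.41) from 34 and 26 UMIs, and at -0.38 in capillaries. Whether the venous and capillary ratios differ was not tested.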
